A study of Rattus norvegicus with 49 samples.

Results

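The late-life step of hippocampal ageing, from mid-life at 12 months to old age at 23 months, was examined in the CA1 field of Fisher 344 rats, an inbred strain widely used in studies of ageing. The comparison took the 9 animals of 12 months and the 13 animals of 23 months, chosen by their age labels, which are 22 of the 49 animals of the study; the others were 3, 6 or 9 months old (9 each). For the oldest animals the study's own description states an age of 25 months once and 23 months later on; the sample labels say 23, which is used here, so the length of the late interval carries that doubt. All were Fisher 344 rats trained in the Morris water maze, a spatial memory task, within about a day of death, and no genetic change or drug is labelled. A further 2 aged animals in poor health had been removed, the sex is not labelled, and the dissected tissue held every cell type of CA1. RNA of the left CA1 of each animal was hybridised to its own Affymetrix RAE 230A array, on which each gene is read by 1 or more probe sets of short oligonucleotides.

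CA1 pyramidal neurons send the main output of the hippocampus proper and are needed for spatial memory. Around them lie astrocytes, myelinating oligodendrocytes and microglia, the resident macrophages of the brain. Microglia prune synapses and clear debris, tag targets with complement proteins, and can load fragments of what they take up onto MHC class II molecules, paired α and β chains that show peptides to CD4+ T cells. The invariant chain Cd74 escorts class II chains through the cell until a peptide is loaded. In healthy young brain tissue class II levels are low, and the class II genes are switched on together by a protein complex that sits on short promoter motifs called the X and Y boxes.

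Promoters of class II genes on the array are shown because RT1-Da, Cd74 and RT1-Bb had the largest called differences between the ages. RT1-Ba is shown as well and was not called. Each run below is the RefSeq sequence of assembly GRCr8 from 250 bases before to 50 bases after the annotated start, 5′ to 3′ on the gene's own strand. Capitals mark exact matches to CTGATTGG, a common form of the Y box, and to GCAACNG, the core of the X box used here; both strands were searched and no matches of the motifs overlapped. RT1-Da encodes a class II α chain and lies at chr20:4515165-4515464 on the plus strand, RT1-Ba encodes another α chain at chr20:4576807-4577106 on the plus strand, and RT1-Bb encodes its partner β chain at chr20:4604069-4604368 on the minus strand.
RT1-Da: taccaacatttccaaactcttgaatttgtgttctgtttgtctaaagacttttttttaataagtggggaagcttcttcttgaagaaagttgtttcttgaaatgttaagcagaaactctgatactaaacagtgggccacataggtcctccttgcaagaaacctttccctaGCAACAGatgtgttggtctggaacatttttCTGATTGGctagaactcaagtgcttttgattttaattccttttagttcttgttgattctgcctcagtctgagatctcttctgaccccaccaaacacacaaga
RT1-Ba: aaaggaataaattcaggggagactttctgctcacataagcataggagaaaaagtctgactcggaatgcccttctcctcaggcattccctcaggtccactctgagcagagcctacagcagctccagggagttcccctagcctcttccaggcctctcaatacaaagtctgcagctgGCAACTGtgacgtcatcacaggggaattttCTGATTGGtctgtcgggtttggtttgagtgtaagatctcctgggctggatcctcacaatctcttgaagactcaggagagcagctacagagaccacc
RT1-Bb: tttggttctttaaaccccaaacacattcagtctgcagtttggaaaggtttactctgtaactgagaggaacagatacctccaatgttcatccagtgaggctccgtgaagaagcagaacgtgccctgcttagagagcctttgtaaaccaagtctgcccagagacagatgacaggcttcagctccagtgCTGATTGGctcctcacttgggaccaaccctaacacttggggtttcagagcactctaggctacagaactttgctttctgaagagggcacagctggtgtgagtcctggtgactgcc
In RT1-Da the Y motif began 52 bases and the X motif 82 bases before the start, with 23 bases between them. RT1-Ba had the same gap of 23 bases, with the motifs 46 and 76 bases before its start. A further class II gene, RT1-Db1, which is not among the called genes, held both motifs as well, 83 and 112 bases before its start, with a gap of 22 bases. The RT1-Bb window held the Y motif 64 bases before the start and no exact X match. The window of Cd74 held neither exact motif, which says only that these letters are not in it. Among all 33469 promoters of the same length, 3.50% held the Y motif, 12.2% the X motif and 0.394% both. Of the 27 genes called below, 22 had a promoter in the table; 2 of those promoters held the Y motif and 1 the X motif. These matches describe the sequence and were not tested as binding sites.

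Between 12 and 23 months transcripts known from immune and phagocytic cells rose in CA1, and few transcripts fell. Of 9541 probe sets tested (8094 genes, each with 1 gene symbol and a signal of at least 100 on 5 or more of the 49 arrays), 25 rose, which is 0.262% of those tested, and 2 fell, 0.021%. These 27 probe sets belong to 27 genes and were called at an adjusted p under 0.05 in limma (Benjamini-Hochberg over all 9541). The rises were led by class II genes, followed by genes of complement, Fc receptors and their adaptors, microglia, phagocytosis and lysosomes; the falls were Chrm3, a muscarinic acetylcholine receptor, and Klc1, a light chain of the kinesin motor. Sizes were modest: the called probe sets had a median absolute difference of 0.34 on the log2 scale, the smallest was 0.22, and 4 exceeded 2-fold. When only the arrays of these 2 ages were fitted, 14 probe sets rose and 0 fell, and 13 of these were among the 27; the calls lost in that fit are marked with their genes below. Across all tested probe sets the median difference was 0.0013, with 50.6% above 0. At an unadjusted p under 0.05, 435 probe sets (4.56%) were higher and 371 (3.89%) lower at 23 months. In 7 probe sets (0.0734%) every animal of 23 months lay above every animal of 12 months, and in 0 (0%) every older animal lay below.

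**Figure D1:**
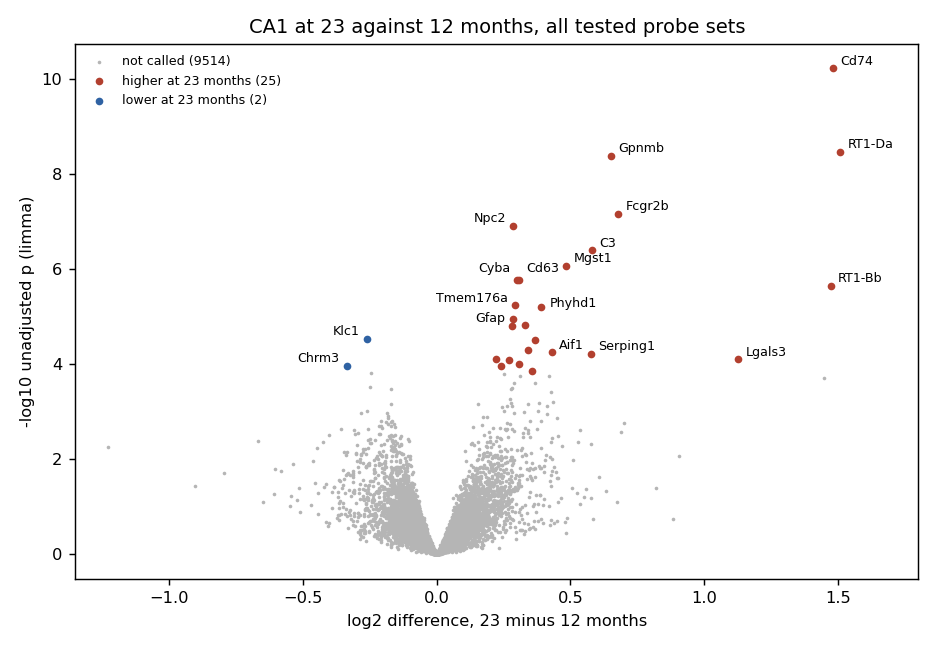
Each point is 1 of the 9541 probe sets; the horizontal axis is the log2 difference (23 minus 12 months) and the vertical axis −log10 of the unadjusted limma p. The 25 called rises (red) spread to the right up to RT1-Da at 1.51, while the 2 called falls (blue), Chrm3 and Klc1, lie at −0.33 and −0.26.

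Signals are the authors' MAS5 intensities, scaled so that arrays share a target, and levels of different probe sets are not compared. The arrays of the 22 animals were alike in brightness, with median signals of 208 to 224.1 and 10242 to 10725 probe sets at 100 or above. RNA integrity was compared through control transcripts read at their 3′ and 5′ ends, and the log2 ratio of these ends differed by 0.0093 (23 minus 12 months) for GAPDH and by 0.090 for actin (exact permutation test over the 22 animals, two-sided, p = 0.744 and 0.180, adjusted over the 2 ratios 0.744 and 0.359). Signs of other tissue were uneven. Transthyretin (Ttr), made by choroid plexus, was 16310 in 23 months replicate 11 and at most 1123 in the other 21 animals. It was also high, from 3908 to 12003, in 4 of the 9 animals of 3 months, which enter the fit and every difference from 3 months; the setting without the arrays of high Ttr leaves out all 5. Haemoglobin (Hbb) was 4388 and 659 in 23 months replicates 8 and 5, and at most 115 elsewhere among the 22. Results that lost their call without these arrays are marked below, with the difference measured without them; the part of this tissue in other results was not tested. Since whole tissue was measured, more cells of a type and more RNA per cell cannot be told apart.

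The class II genes showed the widest separation. Cd74 had signals of 124, 221 and 253 (lowest, median and highest, the order used for every gene below) at 12 months and of 288, 536 and 2439 at 23 months. Every older animal exceeded every younger one. The log2 difference was 1.48 ± 0.18 (SE; adjusted p = 5.8e-07), a 2.79-fold rise. RT1-Da rose from 94.0, 140.2 and 166 to 204, 334 and 2382, again with no overlap, by 1.51 ± 0.21 (SE; adjusted p = 1.3e-05) or 2.84-fold. RT1-Bb was faint in mid-life, at 26.7, 56.3 and 88.3, and lay at 90.4, 139 and 874 at 23 months, a rise of 1.47 ± 0.28 (SE; adjusted p = 0.0021) in which no animal of the groups overlapped. Because its mid-life values are near the low end of the scale, its difference depended on how faint signals were treated and was 1.11 with signals under 64 set to 64. RT1-Bb met the signal minimum only through the animals of 23 months, so it was tested only because that group was high. Its call, its lack of overlap and its place in the list count below carry that limit. RT1-Ba, picked out after its values were seen, differed by 1.45 ± 0.36 (SE) and missed the threshold with an adjusted p of 0.058.

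A single old animal stood far above its group for these genes. In 23 months replicate 9 the signals of Cd74, RT1-Da and RT1-Bb were 2439, 2382 and 874, where the next highest animals had 864, 469.9 and 177. Without it the log2 differences were 1.31, 1.29 and 1.26, and each remained called. The list of class II presentation genes had 10 tested probe sets of 17 listed genes: 3 rose, 0 fell and 9 were above 0, with a median difference of 0.23 (9541 probe sets: 0.0013). T and B cell genes were mostly too faint to test: of 30 lymphocyte markers 5 genes had tested probe sets, their summed signal ran from 528 to 780.4 at 12 months and from 539 to 774 at 23 months, and none of their 6 probe sets was called.

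**Figure D2:**
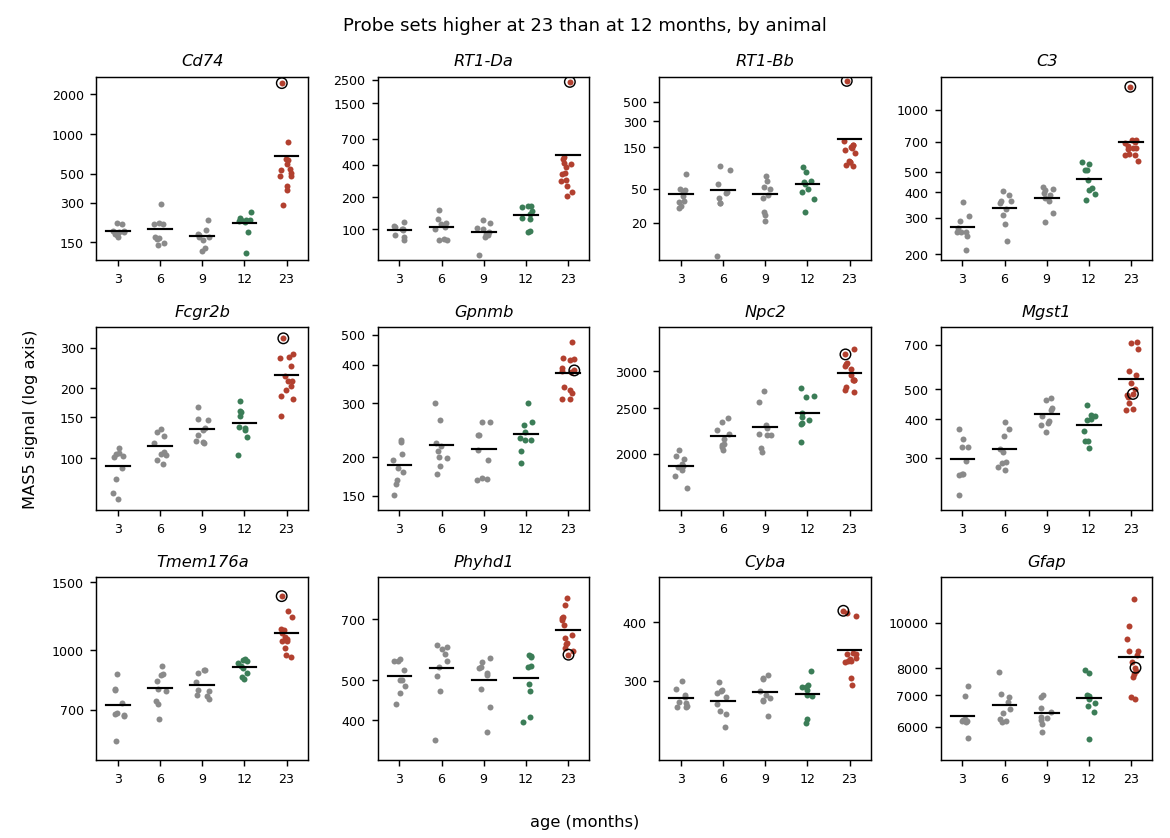
Signals on a log axis against age in months, 1 point per animal, bars at the arithmetic mean of each age (n = 9, 9, 9, 9 and 13), for 12 of the 25 called rises; the circled point is 23 months replicate 9. For Cd74, RT1-Da, RT1-Bb, C3, Gpnmb, Tmem176a and Phyhd1 every animal of 23 months lies above every animal of 12 months. From 3 to 12 months C3, Fcgr2b, Npc2 and Tmem176a also differed with a call, and RT1-Da and RT1-Bb differed by 0.46 and 0.35 without one.

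Complement marks synapses and debris for uptake, and 3 of its genes rose. C3, the component on which all complement routes meet, had signals of 367, 457 and 559 at 12 months and 565, 656 and 1288 at 23 months. The groups did not overlap, and the difference was 0.58 ± 0.10 (SE; adjusted p = 6.5e-04). C1qa, a chain of the C1q recognition protein that microglia make, lay at 889, 1153 and 1214 and at 1149, 1394 and 2742, a rise of 0.37 ± 0.081 (SE; adjusted p = 0.017). The highest C1qa value was again that of replicate 9, and 2 of the 13 older animals lay within the range of the younger; the call was lost without 12 months replicate 3 or 5 (adjusted p up to 0.074) and with only the 2 ages fitted (0.225). Serping1, the inhibitor of the first complement proteases, went from 113, 142 and 239.8 to 160.4, 221 and 340.0; 4 older animals exceeded the highest younger one, 12 months replicate 4. Its difference of 0.58 ± 0.13 (SE; adjusted p = 0.029) was not called in 7 of 22 fits without 1 animal (adjusted p up to 0.079), nor without the arrays of high Hbb (difference 0.50, adjusted p = 0.125). Of 13 tested complement probe sets 3 rose and 0 fell, 12 were above 0 and the median was 0.29. Without the arrays of high Hbb 2 rises remained, and without 23 months replicate 9 the median was 0.22.

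A receptor for antibody and an adaptor of other such receptors rose too. Fcgr2b, the inhibitory Fc receptor for IgG, measured 103, 137 and 176 at 12 months and 152, 216 and 329 at 23 months, with 12 of 13 older animals above the younger range, and rose by 0.68 ± 0.11 (SE; adjusted p = 1.6e-04). Fcer1g, the common γ chain that activating Fc receptors share, lay at 911, 1028 and 1174 and 981, 1259 and 1814; 7 of 13 older animals lay above the younger range, and the rise was 0.33 ± 0.069 (SE; adjusted p = 0.01), a call lost with only the 2 ages fitted (adjusted p = 0.152). The list of Fc receptors and adaptors held 10 probe sets, of which 2 rose and 5 were higher at an unadjusted p under 0.05 (background 4.56%). Their median was 0.20, and 0.16 without 23 months replicate 9.

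Of the markers of resident microglia 2 rose, and most of the others lay above 0. Aif1, the calcium-binding protein Iba1 used to stain microglia, had signals of 176, 219 and 288 at 12 months and 191, 296 and 445 at 23 months. The ranges overlapped widely, and the rise was 0.43 ± 0.098 (SE; adjusted p = 0.028); it missed the threshold without 23 months replicate 9 (adjusted p = 0.057) and without 6 others in turn (up to 0.094), and with only the 2 ages fitted (0.190). Without the arrays of high Ttr the difference was 0.42 and not called (adjusted p = 0.079). A second Aif1 probe set, fainter at 66.2 ± 25.7 and 79.3 ± 26.7, differed by 0.25 ± 0.30 (SE) and was not called. Cyba, a membrane subunit of the superoxide-producing phagocyte oxidase, went from 244, 287 and 315 to 294, 336 and 423, a rise of 0.31 ± 0.057 (SE; adjusted p = 0.0018) with 11 of 13 older animals above the younger range; with only the 2 ages fitted it was not called (adjusted p = 0.072). Of the list's 20 tested probe sets 2 rose and 19 were above 0, with a median of 0.22. At an unadjusted p under 0.05, 10 (50%) were higher and 1 (5%) lower, against 4.56% and 3.89% of all tested. Without replicate 9, 1 rise remained and the median was 0.21. The summed signal of these markers was 7086, 7627 and 8001 at 12 months and 7864, 8328 and 10352 at 23 months, the last in replicate 9.

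Genes that phagocytes raise on activation included 4 rises. Gpnmb, a transmembrane glycoprotein of phagocytes loaded with debris, had signals of 192, 232 and 301 at 12 months and 308, 382 and 473 at 23 months. No older animal overlapped the younger, and the rise was 0.65 ± 0.092 (SE; adjusted p = 1.3e-05). Replicate 9, at 383, was close to the group's median. Lgals3, galectin-3, was faint at 11.5, 61.7 and 94.5 and 71.8, 95.7 and 162. Its difference of 1.13 ± 0.26 (SE; adjusted p = 0.034) became 0.58 with signals under 64 set to 64. Lgals3 met the signal minimum only through the animals of 23 months, so it was tested only because that group was high. Its call was lost in 9 of 22 fits without 1 animal (adjusted p up to 0.135), among them that without replicate 9 (0.066). With only the 2 ages fitted it was not called (0.095). The call was also lost with no signal filter, with quantile normalization, with array weights and with the replicate number as a block. The difference was 1.05 without the arrays of high Hbb and not called (adjusted p = 0.119). Cd63, a tetraspanin of late endosomes and lysosomes, rose from 1279, 1691 and 1895 to 1663, 2068 and 2294, by 0.30 ± 0.056 (SE; adjusted p = 0.0018). Anxa3, a phospholipid-binding annexin, rose from 1163, 1293 and 1429 to 1245, 1580.4 and 2007, by 0.29 ± 0.059 (SE; adjusted p = 0.0081); a fainter second probe set differed by 0.28 ± 0.12 (SE) in the same direction without a call. Of 18 probe sets of the list 16 were above 0 and the median was 0.22. Without the arrays of high Hbb, or without replicate 9, 3 of the 4 rises remained, and the median was 0.16 and 0.22 in turn.

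Lysosomes digest what cells take up, and 2 of 48 lysosomal probe sets rose. Npc2, a soluble lysosomal protein that hands cholesterol out of the lysosome, had signals of 2120.3, 2392 and 2758 and 2709.8, 2949 and 3345. Its rise of 0.29 ± 0.047 (SE; adjusted p = 2.3e-04) was small in fold terms at 1.22 and regular across animals, 11 of 13 lying above the younger range. Cd63 is also on this list. The list as a whole had 40 probe sets above 0 and a median of 0.078. At an unadjusted p under 0.05, 15 (31.25%) were higher and 1 (2.08%) lower, against 4.56% and 3.89% of all tested. The subunits of the proton pump that acidifies lysosomes and synaptic vesicles lay differently: 3 of 17 were above 0, none was called, and the median was -0.025 (-0.014 without the arrays of high Ttr).

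Astrocytes raise the filament protein Gfap when they become reactive. Gfap had signals of 5655, 6878 and 7919 at 12 months and 6874, 8229 and 11251 at 23 months, with 8 of 13 older animals above the younger range and a rise of 0.28 ± 0.06 (SE; adjusted p = 0.01). The call was lost without 12 months replicate 2, the animal of lowest Gfap, with a largest adjusted p over such fits of 0.053, and with only the 2 ages fitted (0.135). It was the 1 call among 43 astrocyte probe sets, 31 of which were above 0 with a median of 0.052. Mgst1, a membrane-bound glutathione transferase that protects lipids from oxidation, rose from 322, 398 and 445 to 428, 503 and 714, by 0.48 ± 0.087 (SE; adjusted p = 0.0012), and was the 1 call among 43 probe sets for oxidative defence and metal binding (median 0.025). Psme1, a subunit of the interferon-induced proteasome activator that favours peptides for class I molecules, went from 706, 844 and 966 to 847, 1006 and 1160.3. Its rise of 0.27 ± 0.063 (SE; adjusted p = 0.034) was the 1 call among 22 class I probe sets (median 0.10, and 0.054 without the arrays of high Hbb). It was not called without those arrays, at a difference of 0.25 (adjusted p = 0.119), nor without replicate 9 (0.069) or 12 other animals in turn (up to 0.127), nor with only the 2 ages fitted (0.089).

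**Figure D3:**
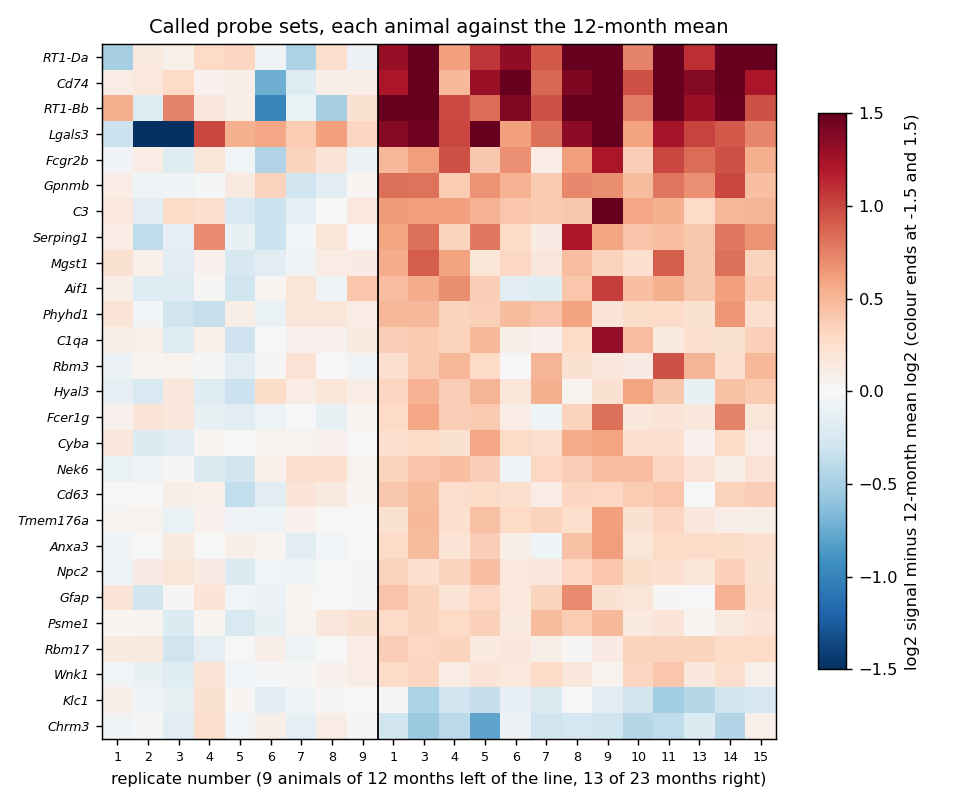
Rows are the 27 called probe sets ordered by their difference, columns the 9 animals of 12 months and 13 of 23 months, and colour the log2 signal minus the 12-month mean, with the colour scale capped at both ends. The class II rows and Lgals3 are darkest in the older animals, replicate 9 is the darkest column for C3 and C1qa, and the last 2 rows, Klc1 and Chrm3, turn blue.

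The other 7 rises lay outside these groups. Phyhd1, an enzyme of the phytanoyl-CoA dioxygenase family, lay at 396, 537 and 575.3 and at 575.4, 641 and 789. Its groups did not overlap but nearly touched, and it rose by 0.39 ± 0.078 (SE; adjusted p = 0.0051). Tmem176a, a membrane protein, also had no overlap, at 841, 908 and 946 and 960.1, 1082 and 1379.9, and rose by 0.29 ± 0.058 (SE; adjusted p = 0.005). The remaining 5 overlapped between ages and were less stable. Rbm3, an RNA-binding protein induced by cold, rose by 0.36 ± 0.087 (SE; adjusted p = 0.049) but was not called in 16 of 22 fits without 1 animal (adjusted p up to 0.132). Hyal3, a hyaluronidase, rose by 0.34 ± 0.077 (SE; adjusted p = 0.026), and Nek6, a mitotic kinase, by 0.31 ± 0.073 (SE; adjusted p = 0.04). Wnk1, a kinase that sets the activity of chloride transporters, rose by 0.22 ± 0.051 (SE; adjusted p = 0.034); its second probe set differed by 0.0096 ± 0.079 (SE). Rbm17, a splicing factor, rose by 0.24 ± 0.058 (SE; adjusted p = 0.04) and is described with the change of course below. Hyal3, Nek6, Wnk1 and Rbm17 were not called in 7, 13, 9 and 13 of the 22 fits that leave out 1 animal, with adjusted p up to 0.1, 0.143, 0.103 and 0.149. With only the 2 ages fitted none of these 5 was called (adjusted p from 0.075 to 0.159). Without the arrays of high Ttr, Rbm3, Nek6, Wnk1 and Rbm17 differed by 0.31, 0.31, 0.20 and 0.23 and were not called (adjusted p from 0.056 to 0.156). Without those of high Hbb, Rbm3, Nek6 and Wnk1 differed by 0.37, 0.30 and 0.23, close to their values on all arrays, and were not called (from 0.051 to 0.119).

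Among the older animals the called rises were uneven. These 25 probe sets were called because the same older animals were higher as a group. That most of these animals lay above the 12-month mean therefore follows largely from the choice and is a description only. In 10 of 13 animals all 25 called probe sets lay above the 12-month mean, and in replicates 6, 7 and 13 it was 22 of 25. Replicate 9 was the highest of its group for 12 of the 25, with a median of 0.59 above the 12-month mean on the log2 scale, against 0.24 in replicate 6, the least shifted animal. The signals of Ttr and Hbb in replicate 9 were 161 and 17.3, within the range of the younger animals. Without it 22 probe sets were called, all of them among the 27. Without the arrays of high Ttr 21 were called and without those of high Hbb 20; without 23 months replicate 3 the count was 17 and without 12 months replicate 5 it was 18.

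The 2 falls were genes of neuronal signalling and transport. Chrm3, the M3 receptor for acetylcholine, had signals of 453, 497 and 610.1 at 12 months and 295, 412 and 538 at 23 months; 11 of 13 older animals lay below the younger range. It fell by 0.33 ± 0.08 (SE; adjusted p = 0.04), and the call was lost in 15 of 22 fits without 1 animal (adjusted p up to 0.127) and with only the 2 ages fitted (0.089). Its difference was -0.33 without the arrays of high Ttr and -0.30 without those of high Hbb, not called in either (adjusted p = 0.088 and 0.119). A second, fainter Chrm3 probe set differed by -0.26 ± 0.15 (SE) without a call. Klc1, which ties cargo to the kinesin motor on axonal microtubules, went from 1566, 1746 and 2044 to 1212, 1440.1 and 1768, with 10 older animals below the younger range. It fell by 0.26 ± 0.057 (SE; adjusted p = 0.017) on this probe set, a call lost without 12 months replicate 1 or 4 (adjusted p up to 0.07) and with only the 2 ages fitted (0.107), while 2 others differed by 0.0027 ± 0.034 and 0.045 ± 0.049 (SE). The probe sets of Klc1 thus disagree, and the fall is that of 1 of 3.

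The next 6 lower differences by p missed the threshold. Tbc1d13, of a family that switches off Rab GTPases, measured 735 ± 91.8 (SD, n = 9) at 12 months and 619 ± 66.7 (SD, n = 13) at 23 months and differed by -0.25 ± 0.06 (SE; adjusted p = 0.052). Nsf, the ATPase that takes apart SNARE complexes after vesicle fusion, measured 3728 ± 452 (SD, n = 9) at 12 months and 3134 ± 321 (SD, n = 13) at 23 months, a difference of -0.25 ± 0.064 (SE; adjusted p = 0.084). Of its other probe sets 1 differed by -0.16 ± 0.048 and 1 by 0.036 ± 0.044 (SE), in opposite directions. Rit2, a small GTPase of neurons, differed by -0.17 ± 0.044 (SE; adjusted p = 0.085), and Rab11b, a GTPase of recycling endosomes, by -0.17 ± 0.047 (SE; adjusted p = 0.141). Clcn4, an endosomal chloride and proton exchanger, differed by -0.26 ± 0.075 (SE; adjusted p = 0.177) and Gnaz, a G protein α subunit of neurons, by -0.28 ± 0.081 (SE; adjusted p = 0.178).

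**Figure D4:**
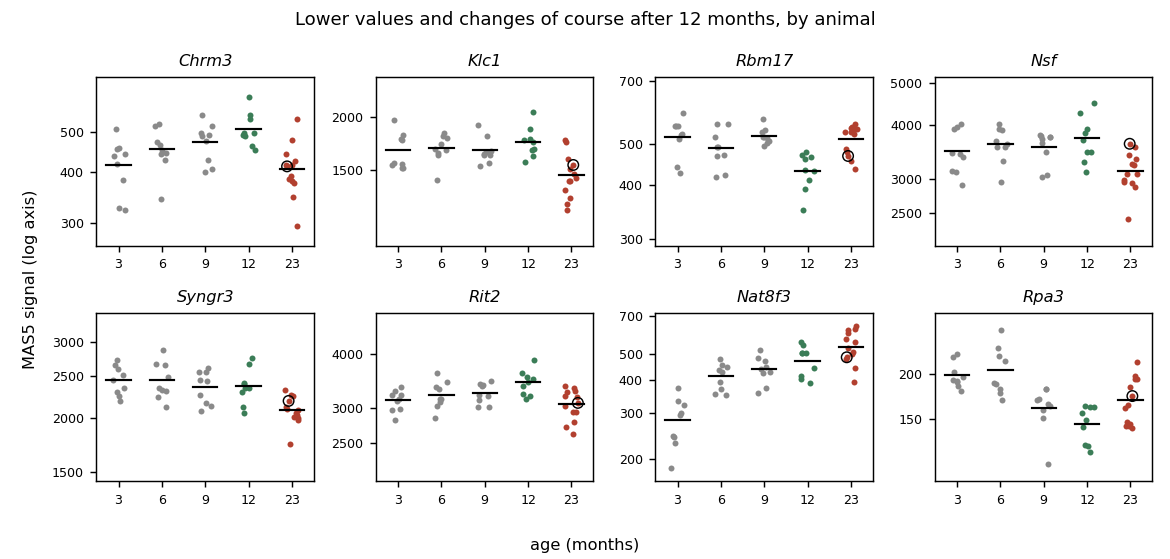
Signals on a log axis against age in months, 1 point per animal with bars at the mean of each age, for the 2 falls (Chrm3, Klc1), 3 lower values without a call (Nsf, Syngr3, Rit2) and 3 genes named for a change of course (Rbm17, Nat8f3, Rpa3); the circle is 23 months replicate 9. The 12-month mean of Chrm3 is the highest and that of Rbm17 the lowest of the 5 ages, and the animals of 12 months overlap those of other ages.

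Lists of neuronal genes held no calls, and several lay below 0 in most of their members. Of 51 probe sets for synaptic vesicles and release 38 were below 0, 12 were lower at an unadjusted p under 0.05, which is 23.5% against 3.89% of all tested, none was higher, and the median was -0.069. Syngr3, a vesicle membrane protein, measured 2376 ± 223 (SD, n = 9) at 12 months and 2088 ± 151 (SD, n = 13) at 23 months, a difference of -0.18 ± 0.053 (SE; adjusted p = 0.180). Receptors for GABA and glycine, which carry fast inhibition, were below 0 in 16 of 17 probe sets, with a median of -0.089; the β subunit of the glycine receptor, Glrb, differed by -0.17 ± 0.058 (SE; adjusted p = 0.313). Potassium channel subunits had a median of -0.044. At an unadjusted p under 0.05, 6 of 53 (11.3%) were lower, against 3.89% of all tested, and 0 were higher. The leading one was Kcnab1, an accessory β subunit, at -0.21 ± 0.062 (SE; adjusted p = 0.226). Immediate early and activity-regulated genes, which neurons switch on with activity, had 36 of 54 below 0 and a median of -0.086. At an unadjusted p under 0.05, 7 of them (13.0%) were lower and 2 (3.70%) higher, against 3.89% and 4.56% of all tested. The leading ones were Ier5 at -0.25 ± 0.083 (SE; adjusted p = 0.306) and Homer1, a postsynaptic scaffold, at -0.28 ± 0.11 (SE; adjusted p = 0.402) on 1 probe set, where its others lay between -0.20 and 0.007. Glutamate receptors had a median of -0.025 and calcium channels, stores and buffers one of -0.023 (-0.014 without the arrays of high Ttr). With quantile normalization or median centring the medians of these 6 lists kept their sign. All of these values are descriptions without a test of the list.

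Markers of neurons themselves held no call. The 40 pan-neuronal probe sets had a median of -0.037 (-0.017 without the arrays of high Hbb) and summed signals of 105374 to 112002 at 12 months and 102872 to 111333 at 23 months. The CA1 pyramidal markers had a median of -0.045 and none of 14 was called. At an unadjusted p under 0.05, 3 (21.4%) were lower and 0 higher, against 3.89% and 4.56% of all tested. The leading one was Ccn3, a secreted matrix protein, at -0.20 ± 0.063 (SE; adjusted p = 0.245). Wfs1, an endoplasmic reticulum protein that marks CA1 neurons, measured 5553 ± 554 (SD, n = 9) at 12 months and 5129 ± 679 (SD, n = 13) at 23 months. Prox1 of dentate granule cells had a signal that spanned 344 to 765 at 12 months and 283 to 1066 at 23 months, and the sign of its difference varied with the setting. Over 9 probe sets the dentate granule markers had a median of 0.048, with 6 above 0 and none called. Without 23 months replicate 9 that median was -0.0025. Markers of CA3 and CA2 had a median of -0.087 over 11 probe sets with none called. Their part in the neuronal values was not tested.

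Other cell classes and housekeeping groups held no calls. The 31 oligodendrocyte probe sets had a median of 0.024 (0.038 without the arrays of high Hbb and 0.041 without replicate 9), and myelin basic protein (Mbp) was 19401 ± 1714 (SD, n = 9) at 12 months and 19365 ± 2494 (SD, n = 13) at 23 months. Oligodendrocyte precursor markers had a median of 0.14 over 10 probe sets (0.22 without the arrays of high Hbb), with Vcan, a matrix proteoglycan, at 0.43 ± 0.14 (SE; adjusted p = 0.282) and the receptor Pdgfra at 0.19 ± 0.075 (SE; adjusted p = 0.429). Interferon response genes had a median of 0.094 over 20 probe sets, and 0.039 without the arrays of high Hbb, led by the transcription factor Irf1 at 0.27 ± 0.13 (SE; adjusted p = 0.587), and cytokine and Jak-Stat genes one of 0.12 over 26, led by the cytokine Il18 at 0.32 ± 0.10 (SE; adjusted p = 0.266). Cytosolic ribosomal proteins were above 0 in 38 of 41 probe sets with a median of 0.053, while mitochondrial respiratory chain genes were above 0 in 20 of 69 with a median of -0.03. Genes of one complex are measured on the same animals and vary together, so such counts are descriptions. Choroid plexus and ependyma markers had a median of 0.17, and 0.032 without the arrays of high Ttr; their summed signal was 1923 to 2972 at 12 months and 1951 to 28101 at 23 months, the last in replicate 11. In all, 10 of 42 lists had a called member; 18 of the 27 called probe sets were on a list and 9 were on none.

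**Figure D5:**
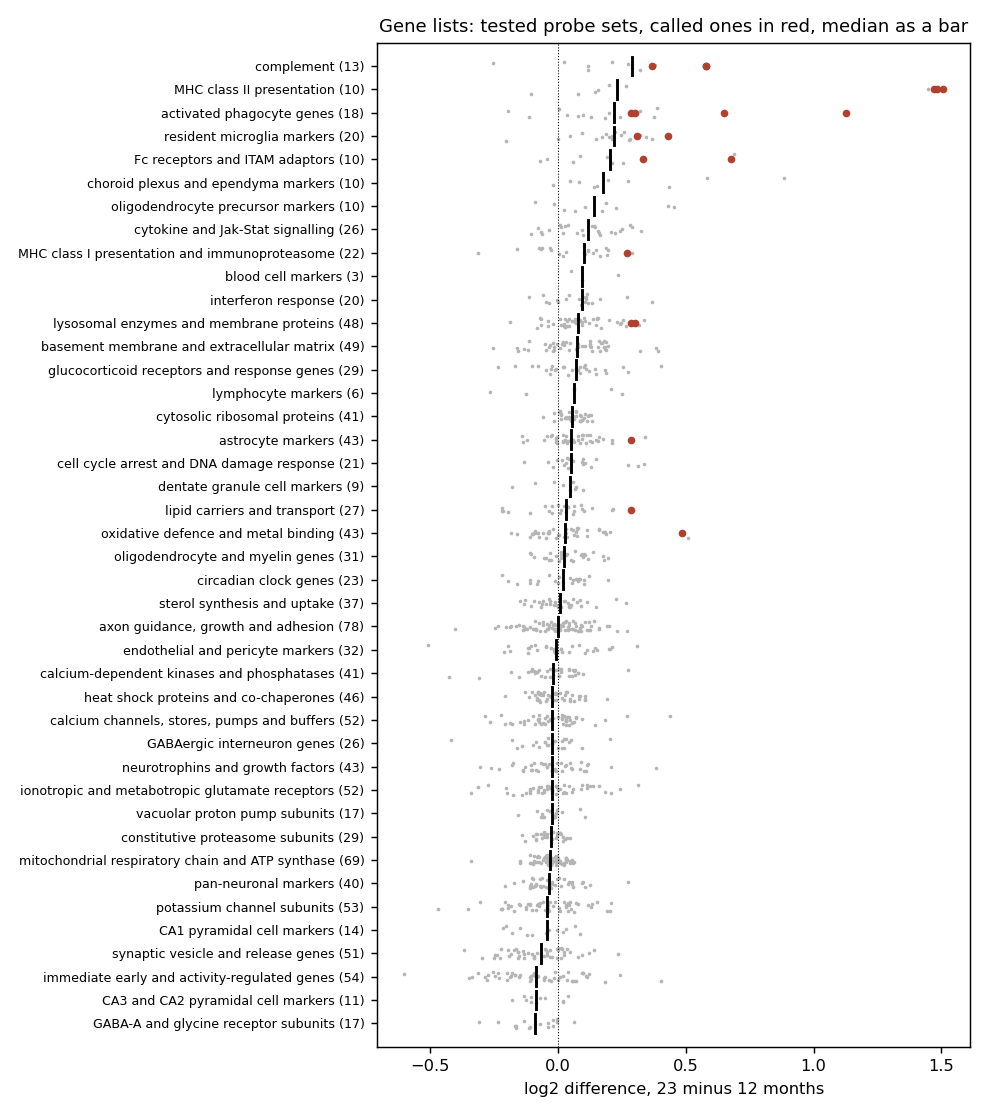
Each row is 1 of the 42 gene lists with its number of tested probe sets, grey points are the log2 differences (23 minus 12 months) of single probe sets, red points the called ones and the black bar the list's median; rows are ordered by the median. Complement, class II, phagocyte, microglia and Fc receptor lists lie highest, with medians of 0.20 to 0.29, and the receptors for GABA and glycine lowest at −0.089. Without 23 months replicate 9 the medians of the lists named as highest ran from 0.16 to 0.22.

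The last question was whether the late interval differed from the earlier one. The comparison of 12 with 3 months called 19 probe sets (0.199%) and that of 23 with 3 months 298 (3.12%); these share animals with the late comparison and are given only for scale. Without the 5 arrays of high Ttr, 4 of them of 3 months, the counts were 15 and 189, of which 11 and 166 were shared. C3 differed by 0.77 from 3 to 12 months and 0.58 from 12 to 23 months (adjusted p = 1.3e-05 for the earlier interval), Fcgr2b by 0.62 from 3 to 12 months and 0.68 from 12 to 23 months (0.0031), and Npc2 by 0.37 from 3 to 12 months and 0.29 from 12 to 23 months (6.1e-06). Fcer1g and Tmem176a were called in the earlier interval as well, at 0.43 (9.2e-04) and 0.33 (0.0031). Without the arrays of high Ttr these 5 earlier differences were 0.79, 0.72, 0.39, 0.44 and 0.43 in the same order, each still called. For other rises the earlier difference was not called: Cd74 differed by 0.17 from 3 to 12 months and 1.48 from 12 to 23 months (0.879), RT1-Da by 0.46 from 3 to 12 months and 1.51 from 12 to 23 months (0.648), Gpnmb by 0.34 from 3 to 12 months and 0.65 from 12 to 23 months (0.190), Cyba by 0.027 from 3 to 12 months and 0.31 from 12 to 23 months (0.953) and Phyhd1 by -0.02 from 3 to 12 months and 0.39 from 12 to 23 months (0.978).

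The difference between the intervals was itself tested, and limma called 0 of 9541 probe sets, with 475 at an unadjusted p under 0.05 and a smallest adjusted p of 0.167. The intervals are of unequal length and the changes were not scaled to time, so rates were not tested. So a late start was not shown for any probe set, including Cd74, for which the intervals differed by 1.31 ± 0.33 (SE; adjusted p = 0.553). The smallest p belonged to Rbm17, whose mean signal was 519 ± 52.3 at 3 months, 488 ± 49.7 at 6, 521 ± 22.3 at 9 (SD, n = 9 each), 433 ± 42.1 at 12 and 512 ± 40.3 at 23 months. The mean at 23 months was thus close to that at 3 months, and the 12-month mean was the lowest of the 5. Chrm3 had its highest mean at 12 months, with 417 ± 62.5, 454 ± 53.3, 473 ± 51.6, 510.5 ± 48.8 and 407 ± 59.7 at the same ages; the intervals differed by -0.64 ± 0.15 (SE; adjusted p = 0.300). Rpa3, a subunit of the single-strand DNA-binding protein RPA, differed by -0.45 from 3 to 12 months and 0.22 from 12 to 23 months. Nat8f3, of an acetyltransferase family, differed by 0.77 from 3 to 12 months and 0.17 from 12 to 23 months and so had its larger difference early, with a called rise there (adjusted p = 2.9e-06). Ccnjl, a cyclin-like gene, differed by -0.74 from 3 to 12 months and 0.70 from 12 to 23 months at faint signals, 54.6 ± 25.9 at 12 months. A probe set of Tm2d1 and that of Cebpz had lower means at 12 months than at 3 or 23 months, and Rit2, Rnaseh2c, Mrps11 and a probe set of Plekhb2 higher ones, without a call for the difference between intervals. Probe sets named for a change of course were chosen by their small p in this contrast, in which the 12-month mean weighs most. An extreme mean at 12 months was thus favoured by the choice.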

How the data were processed

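The deposited values are MAS5 intensities on a linear scale, which the authors scaled to a target intensity of 500, per the design text of the series and the submitters' processing notes; the MAS5 version is not given. The trimmed array means bear this out (lowest 500.1, trimming 2% at each end). Of 15923 probe sets, 57 were controls, 12783 had 1 gene symbol, 312 several and 2822 were not listed. Scan dates and presence calls were not used, and no array batch could be tested.

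Signals under 16 were set to 16 (0.053% of tested values) and log2 was taken. All 49 arrays entered 1 linear model with a mean per age, fitted by limma 3.58.1 (lmFit, then eBayes allowing a trend of variance with signal; R 4.3.3), two-sided, with Benjamini-Hochberg adjustment and calls at an adjusted p under 0.05; log2 differences refer to this floored scale. The step was tested on simulated data. Per-sample columns left unused: 0. All 231 pairs among the 22 arrays differed, the closest with an SD of 0.28 in log2 signal. The members, gene lists and comparisons were chosen with earlier results of these data known. Named genes were set by rule: the 15 largest called differences in each direction, filled to 8 with the smallest p where few were called; of each list up to 8 called members or the 2 of smallest p; 6 per direction for the difference between intervals; all probe sets of a named gene; and defining cell markers. The animals are separate, and the number of arrays limits the precision. Alternatives covered the floor, the filter, scaling, variance model, array weights, the ages fitted, replicate block, arrays of high Ttr or Hbb, and each animal left out.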

Additional observations from a re-analysis of the deposited data

Results flagged for a closer look

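Within the 9 animals of 12 months, 165 probe sets were examined for an animal whose gap to its nearest neighbour exceeded 0.493 of the group's range, and 9 were found. Chance gives about 1 in 20, and the count of 9 is close to that share. The values below are therefore descriptions and do not mark these animals as unusual. Cd74 was lowest in replicate 6, at 123.6, where the others lay between 180.8 and 253.2, all below the lowest old animal. Rgs14, a marker of CA2, was highest in replicate 8 at 1157. Replicate 3 was lowest for both tested probe sets of Gabrb2, a GABA receptor subunit, at 2207 and 90.3, for the fainter probe set of Chrm3 at 76.8, and for a probe set of Mertk at 85.9. A probe set of Cd247 was lowest in replicate 1 at 15.1, Ndufv3 was lowest in replicate 6 at 998.7, and a faint probe set of Scd2 was highest in replicate 2 at 184.2. Of these 9 only the Cd74 probe set was called between the ages, and it kept its call without any single animal.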

How the results depend on the processing

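No called difference changed sign under any of the alternatives run. The count of 27 became 14, all higher, when only the 12- and 23-month arrays were fitted. With 1 animal left out it ran from 17 (without 23 months replicate 3) to 34 (without 23 months replicate 6). It was 31 with signals under 64 set to 64, 21 with no signal filter, 25 with a signal of 200 on 10 arrays, 29 with 1 probe set per gene, 26 with quantile normalization, 27 with median centring and 23 with array weights. With the replicate number as a block it was 28, of which 18 were among the 27; the numbers do not pair animals, since deviations of same-numbered animals correlated by −0.023 to 0.085 and none matched its own number best. It was 27 with the signal minimum applied to the 22 arrays and 28 without the variance trend. In 12 of the 27 the call held in all 13 settings of this kind, those without the arrays of high Ttr or Hbb included, and without each animal: RT1-Da, Cd74, RT1-Bb, Fcgr2b, Gpnmb, C3, Mgst1, Phyhd1, Cd63, Tmem176a, Anxa3 and Npc2. The difference between intervals gave 0 calls in each setting. Of 138 named values without a call, 28 changed sign in at least 1 setting and 4 were called in at least 1 (Tbc1d13, Nsf, Rit2 and Kcnab1). The differences in control ratios were 0.019 and 0.088 without the array of high Ttr and 0.0031 and 0.093 without those of high Hbb, alternatives chosen after seeing the data, as were the list values without these arrays or replicate 9 and the earlier differences without the arrays of high Ttr. The median 95% half-width of a single log2 difference, before adjustment, was 0.16, and larger changes than this can miss the adjusted threshold; faint probe sets (RT1-Bb, Lgals3) carry sizes that depend on the floor. Both of these probe sets also met the signal minimum only through the animals of 23 months.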
